A study of Mus musculus with 30 samples.

Results

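Nuclear tRNA genes were located against the replication initiation zones of mouse embryonic stem cells. The genes were chosen by annotation: all genes of biotype tRNA on chromosomes 1 to 19 in the RefSeq gene table of GRCm38.p6, the build also called mm10, which gave 386 of 46709 genes of all kinds. Each was then placed by the deposited zone edges, which are the measured values in this selection, so the shares below describe where the genes lie and carry no test. The table lists 430 tRNA genes in all; 22 mitochondrial genes, 17 on chromosome X, for which no zones were analysed here, and 5 on scaffolds were left out. The zones come from a wild-type OK-seq library of E14TG2a cells, a mouse embryonic stem cell line, kept in 2i/LIF medium (inhibitors of MEK and GSK3 plus the cytokine LIF) and labelled with 10 µM of the thymidine analogue EdU for 2 min. OK-seq sequences Okazaki fragments, the short pieces of the lagging strand, by strand, and so gives the direction in which forks travel. It is 1 of 30 samples in 17 groups of a study on how old and new histones pass to the sister chromatids; the other 29, SCAR-seq libraries of wild-type and MCM2-2A mutant cells, were not analysed here. With 1 library there is no replicate error, and the depth behind the zones is unknown.

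Transfer RNAs carry amino acids to the ribosome, and each reads codons through the 3 bases of its anticodon. Their genes are short and are transcribed by RNA polymerase III from a promoter inside the gene, whose box A and box B are bound by the factor TFIIIC. Mammalian genomes hold many copies, some in large clusters, and in budding yeast tRNA genes are known as places where replication forks pause. In mouse symbols such as n-TRtcg5 the capital after T is the amino acid and the next 3 letters are the anticodon. The 386 genes, 70 to 107 bases long, covered 20 amino acids and 48 anticodons; a single symbol, n-Tcgca44, has no capital there and was counted under no amino acid.

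To show what kind of element was placed, the sequences of 4 genes are given. They are the tRNA genes that lie whole inside the windows of 300 bases around the starts of annotated genes in the RefSeq promoter table (GRCm38.p6). The strand was taken as the one that holds the box B letters, and each gene runs 5′ to 3′. Capitals mark, in this order, 11 bases of box A, the anticodon and 11 bases of box B. n-TRtcg5 (chr7:79466419-79466491, plus strand) lies within the annotated span of Polg, which encodes the catalytic subunit of the mitochondrial DNA polymerase. n-TAagc16 (chr13:21222586-21222657, plus strand) and n-TVcac9 (chr13:23446142-23446214, minus strand) belong to the chromosome 13 clusters, and n-TTagt9 (chr7:35234770-35234843, minus strand) overlaps the lncRNA gene Gm38989.
n-TRtcg5: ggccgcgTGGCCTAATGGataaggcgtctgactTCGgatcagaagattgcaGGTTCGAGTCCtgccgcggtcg
n-TAagc16: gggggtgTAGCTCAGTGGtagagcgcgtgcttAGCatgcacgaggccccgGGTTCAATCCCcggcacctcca
n-TVcac9: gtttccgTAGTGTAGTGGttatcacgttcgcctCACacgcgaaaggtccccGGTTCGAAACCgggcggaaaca
n-TTagt9: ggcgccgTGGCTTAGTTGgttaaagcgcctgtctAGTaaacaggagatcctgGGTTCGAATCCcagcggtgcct

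All 4 genes have the box A letters TNGNNNA from base 8, and the box B letters GGTTCNA from base 51, 52 or 53. Pairwise identity ranged from 50.7% to 63.5% of aligned positions, boxes included. Of 32851 windows of the table, searched on both strands, 98.9% held the box A letters and 9.73% the box B letters; box A followed by box B at a start-to-start distance of 38 to 65 bases was found in 765 windows (2.33%), these 4 among them. The first 3 genes as listed lay inside an initiation zone, with their middle 8.05, 11.1 and 21.3 kb from its breakpoint, and n-TTagt9 lay 17.2 kb outside one.

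The zone list held 2844 zones with a median width of 112 kb, each reported as a breakpoint bin of 1 kb, where leftward and rightward forks part, with a left and a right edge. Zones covered 12.98% of the 2402 Mb searched. A gene was counted as inside when its middle lay between the edges, and breakpoint distances were taken to the centre of the bin.

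Transfer RNA genes lay inside initiation zones more often than genes of the other annotated kinds compared. Of the 386 genes, 144 were inside a zone (37.3%, Wilson 95% interval 32.6 to 42.2%), against 22.5% of 20558 protein-coding genes (4632) and 19.8% of the 46323 genes of all kinds other than tRNA. Genes of snoRNAs, snRNAs and miRNAs, which are short like tRNA genes, were inside in 20.7% of 3336 cases. Within 20 kb of a zone or inside it were 179 tRNA genes (46.4%), against 29.9% of protein-coding genes. The median tRNA gene was 27.8 kb from the nearest zone edge (quartiles 0 and 166.3 kb, inside counted as 0), and the median protein-coding gene 93.3 kb (7.0 and 267.4 kb). Among other products of RNA polymerase III, none of the 40 5S rRNA genes (symbols n-R5s) of chromosome 8 was inside a zone (Wilson 95% interval 0 to 8.76%). Their median distance was 135.6 kb (quartiles 117.4 and 157.2 kb), and 1 of the 49 on all chromosomes was inside. Distances so alike can come from genes side by side, so the 40 may be few independent places. The difference between tRNA and protein-coding genes was 14.8 percentage points, but it was 3.59 points (95% interval -1.25 to 9.07) without chromosome 13, where 26.3% of 281 tRNA genes and 22.7% of 19729 protein-coding genes were inside. It was 4.89 points (0.169 to 9.86) when a gene with either end inside counted, which put 32.4% of protein-coding genes inside. The median length was 17578.5 bases for protein-coding genes and 72 for tRNA genes, and the part of length in this was not tested. The intervals treat genes as independent, which neighbours in 1 zone are not.

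**Figure D1:**
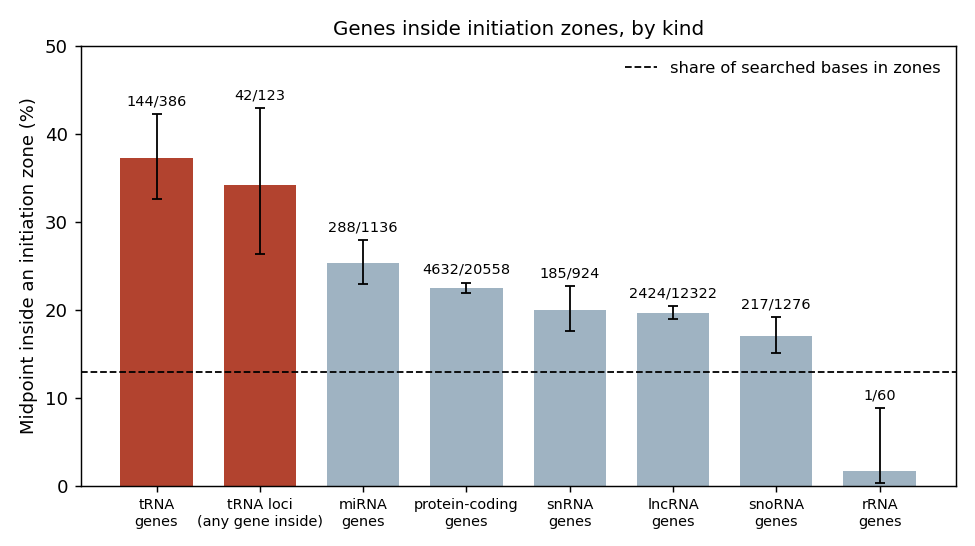
Share of genes whose middle lies inside an initiation zone (y axis, %), by kind of gene (x axis), with tRNA genes and loci in red and the other kinds in grey-blue. Bars show shares, lines the Wilson 95% intervals, and the numbers above them the genes or loci inside over all; the dashed line is the share of searched bases in zones, 12.98%. The tRNA bars, at 37.3% and 34.1%, are the highest, and rRNA genes, at 1.67%, the lowest. Of the 60 rRNA genes, 40 are 5S genes of chromosome 8.

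Counting places rather than genes gave a similar share. When tRNA genes at most 50 kb apart were joined, the 386 genes formed 123 loci, of which 92 were single genes and 31 were clusters of 2 or more. At least 1 gene was inside a zone in 42 loci (34.1%, 26.4 to 42.9%). Single genes were inside in 29 of 92 cases (31.5%, 22.9 to 41.6%), clusters of 2 to 4 genes in 5 of 18 (27.8%, 12.5 to 50.9%) and clusters of 5 or more in 8 of 13 (61.5%, 35.5 to 82.3%), with intervals that overlap. A cluster has more genes that could touch a zone than a single gene has, and the middle of a locus lay inside in 41 of the 123 (33.3%). Of the 31 clusters, 8 lay wholly inside, 18 wholly outside and 5 were mixed, and the mixed ones were all among the 13 clusters of 5 or more genes.

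Few zones were involved. A tRNA gene lay in 41 of the 2844 zones (1.44%), and 27 of these held just 1. The 3 zones with most tRNA genes, all on chromosome 13, held 70 of the 144 inside genes (48.6%). The 41 zones had a median width of 115 kb (quartiles 76 and 144 kb), against 112 kb (82 and 138 kb) in the other 2803. They held the middle of a median of 2 protein-coding genes, against 1 in the others, and 6 of the 41 (14.6%) held none, against 38.2%.

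Within zones, tRNA genes and protein-coding genes had similar positions. Of the 144 inside genes, 72 were nearer to the breakpoint than to the edge of their arm (50.0%), against 50.7% of the 4632 inside protein-coding genes. On chromosome 13 this share of tRNA genes was 44.3%, and on the other chromosomes 55.4%. The median distance to the breakpoint was 30.5 kb for tRNA genes and 30.4 kb for protein-coding genes. Counted over all genes, 22 tRNA genes (5.70%) had a breakpoint within 10 kb, against 3.73% of protein-coding genes. Counted over inside genes alone, the shares were 15.3% of tRNA genes and 16.5% of protein-coding genes. Of the 22 tRNA genes, 10 were on chromosome 13. The 10 nearest were n-TSaga5, n-TYgta8, n-TQctg10, n-TRtct3, n-TEttc5, n-TRccg3 and n-TLcaa2 of chromosome 13, with n-TRccg1 of chromosome 11, n-TGgcc1 of chromosome 4 and n-TPcgg2 of chromosome 1. They lay 0.245 kb (n-TSaga5) to 4.61 kb (n-TLcaa2) from the middle of the bin, and since the bin is 1 kb wide the smallest values do not rank genes. The genes outside chromosome 13 among them were n-TRccg1 (1.40 kb; nearest protein-coding gene 1810010H24Rik), n-TGgcc1 (2.97 kb; Wasf2, which encodes an actin regulator of the WAVE family) and n-TPcgg2 (4.19 kb; Rcsd1). At the edges, n-TQctg3, n-TYgta7 and n-TKctt27 were the last genes inside, at 0.426, 1.03 and 2.79 kb from the edge, and n-TAagc13, n-TFgaa3 and n-TRacg1 the first outside, at 0.553, 1.00 and 1.18 kb. Edges are given in bins of 1 kb, so these 6 genes could change side with a shift of 1 to 3 bins.

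The chromosomes differed widely. Of the 18 chromosomes with a tRNA gene in the table, 15 had 1 inside a zone. Chromosome 13 had 70 of 105 genes inside (66.7%, 57.2 to 74.95%), while 17.5% of its 829 protein-coding genes were inside, a share that chromosome 6 also had and that was the lowest of the 18. Chromosome 19 had 9 of 10 inside (90.0%, 59.6 to 98.2%), 8 of them in a single cluster. Chromosome 11 had 20 of 47 (42.6%, 29.5 to 56.7%) and chromosome 3 had 13 of 40 (32.5%, 20.1 to 48.0%). Chromosome 1 had 5 of 37 inside (13.5%, 5.91 to 27.98%) and chromosome 6 had 2 of 53 (3.77%, 1.04 to 12.8%), each with 1 large cluster wholly outside. None of the 12 genes of chromosome 17, the 4 of chromosome 15 and the 3 of chromosome 12 was inside. By locus the contrast was smaller: 3 of 7 loci of chromosome 13 had a gene inside, 2 of 6 on chromosome 6, 4 of 11 on chromosome 1, 5 of 17 on chromosome 11 and 7 of 12 on chromosome 3.

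**Figure D2:**
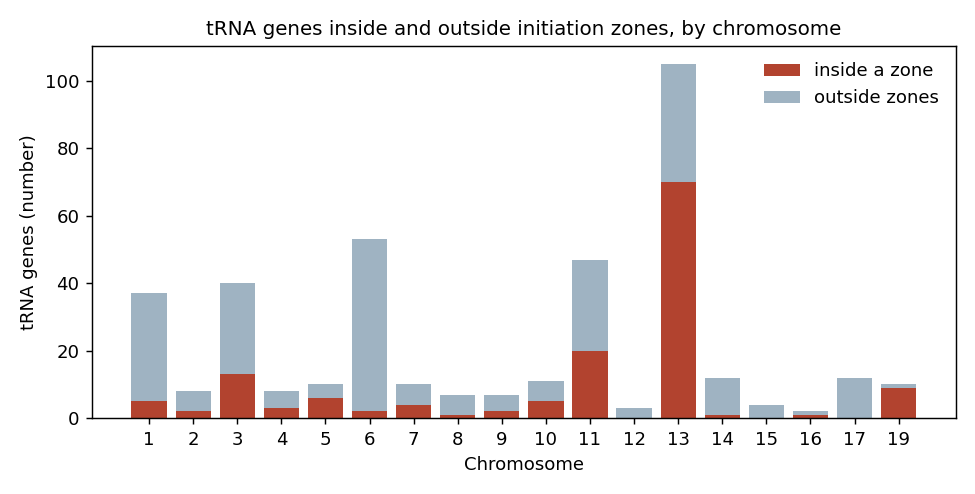
Number of tRNA genes (y axis) on each chromosome (x axis), with genes inside an initiation zone in red and genes outside stacked above in grey-blue. Chromosome 13 holds 70 of the 144 inside genes, and chromosome 6, with 53 genes, holds 2.

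On chromosome 13, 104 of the 105 tRNA genes lay in a region of 2.77 Mb (21160785 to 23934913) that also holds the major cluster of core and linker histone genes. Zones covered 13.8% of this region and contained 70 of its tRNA genes (67.3%, 57.8 to 75.6%), against 5 of 53 histone genes matched by symbol (9.43%, 4.10 to 20.3%) and 6 of 70 other protein-coding genes (8.57%, 3.99 to 17.5%). H4bc24, a further gene with a histone symbol, was not matched and counts among the others. The 70 tRNA genes fell in 3 zones, 1 in each of the 3 largest clusters of the chromosome, and in each zone tRNA genes lay on both sides of the breakpoint. The 53 matched histone genes had a median of 66.7 kb to the nearest zone edge, and the 5 inside, H4c8, H2ac10, H3c8, H2bc9 and H3c7, shared the rightmost of these zones with 25 tRNA genes.

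**Figure D3:**
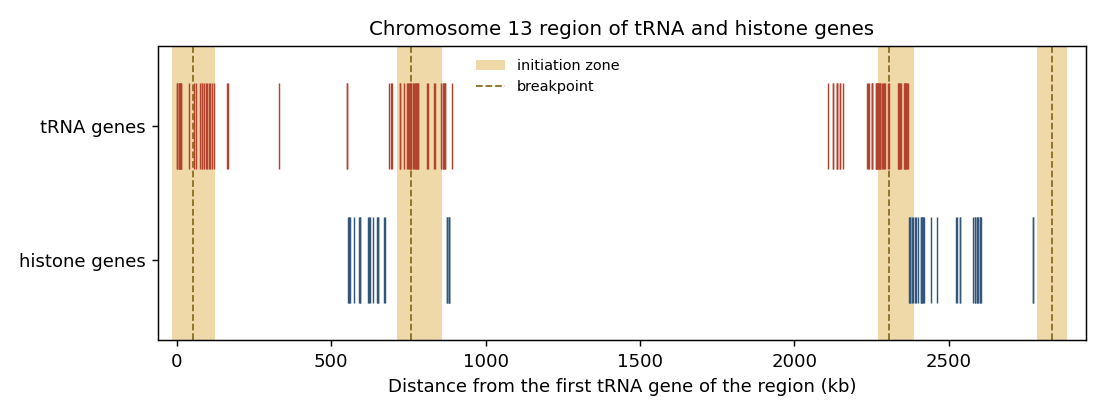
Middle of each tRNA gene (upper row, red) and each of the 53 core or linker histone genes matched by symbol (lower row, blue) along the chromosome 13 region, in kb from its first tRNA gene (x axis), with initiation zones shaded and their breakpoints dashed. The first 3 zones hold 22, 23 and 25 tRNA genes and 0, 0 and 5 histone genes, and the last zone holds neither.

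The first of these clusters (n-TEctc11 to n-TMcat13, 21160785 to 21326789) held 24 genes of 16 anticodons, 22 of them in the zone from 21144001 to 21283000. Its breakpoint, in the bin from 21211001, had 10 of the genes on its left and 12 on its right, and n-TRccg3, a gene for an arginine tRNA, was nearest at 3.99 kb. n-TAagc16, whose sequence is given above, is one of 4 alanine genes of the cluster with anticodon AGC, all inside. The 2 genes outside, n-TTcgt4 and n-TMcat13, lay beyond the right edge, at most 43.8 kb away. The second cluster (n-TLtaa2 to n-TSgct5, 21848022 to 22050767) held 32 genes of 18 anticodons and overlaps the zinc finger gene Zfp184. Its zone, from 21875001 to 22020000, held 23 of them, 9 on the left and 14 on the right of the breakpoint, with n-TSaga5, a serine tRNA gene, 0.245 kb from it. All 4 serine genes of the cluster with anticodon AGA, all 3 aspartate genes (GTC) and all 3 glutamine genes (CTG) were inside. The 9 outside genes lay up to 30.7 kb from an edge. The right arm of this zone was 100 kb, the longest that the list contains. An arm of this length may have been cut at a limit, which was not tested. n-TRacg1 and other genes counted as outside lie beyond this edge.

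The third cluster (n-TIaat3 to n-TMcat9, 23397060 to 23530419) held 36 genes of 20 anticodons, the most anticodons of any locus, and overlaps Btn1a1, which encodes the milk fat globule protein butyrophilin. The zone from 23432001 to 23548000 held 25 of them, 11 left and 14 right of the breakpoint, and n-TYgta8, a tyrosine tRNA gene, was 0.380 kb from it. The 11 genes outside all preceded the left edge, by at most 34.9 kb; n-TVcac9 lay inside. Close to this cluster, the 9 genes from n-TIaat15 to n-TMcat12 (23270421 to 23317538) were all outside, at 114.5 to 161.5 kb. Of the remaining tRNA genes of the chromosome, n-TSgct2, n-TGgcc7 and n-TMcat7 lay between the first and second cluster, 164.0 to 209.9 kb from a zone, and n-TKctt6 was far from the region, 163.8 kb from a zone. In the 3 clusters that hold these zones, of 24, 32 and 36 genes, zones covered 73.6%, 71.5% and 73.8% of the span from first to last gene. Of their genes, 91.7%, 71.9% and 69.4% were inside. The share of genes inside was thus near the share of bases in the clusters of 32 and 36 genes and above it in the cluster of 24. The mixed clusters of other chromosomes differed. The chromosome 11 cluster from n-TIaat5 had 67.1% of its span in a zone but 38.9% of its genes inside. For the chromosome 3 cluster from n-TNgtt4 the shares were 12.5% of the span and 24% of the genes.

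Outside chromosome 13, the clusters of 5 or more genes ranged from wholly inside a zone to at least 482.0 kb away. On chromosome 11, the 8 genes from n-TVcac7 to n-TLaag6 (48818542 to 48857055), with 8 different anticodons, lay wholly within the zone from 48757001 to 48873000, around Trim7; n-TGacc1 was 4.74 kb from the breakpoint. On chromosome 19, the 8 genes from n-TFgaa6 to n-TVtac2 (12002236 to 12012338) lay in the zone from 11926001 to 12071000, 8.12 kb from Osbp, which encodes oxysterol-binding protein. On chromosome 5, the 5 genes from n-TAtgc10 to n-TAtgc5 (125404250 to 125409543) lay in the zone from 125343001 to 125533000, 4.204 kb from the RNA helicase gene Dhx37. These 3 clusters spanned 38.5, 10.1 and 5.29 kb, and a cluster wholly inside 1 zone cannot span more than that zone. The 5 clusters of 5 or more genes that lay wholly outside spanned 16.4 to 229.7 kb.

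Of the larger clusters outside chromosome 13, a pair straddled a zone edge. The second cluster of chromosome 11, 18 genes from n-TIaat5 to n-TKctt27 (69037003 to 69125248), had 7 inside the zone from 69066001 to 69128000, among them n-TTagt5, 0.500 kb from the circadian clock gene Per1, and n-TRtct4, which lies in Hes7, a gene of the segmentation clock. The 11 others had at most 28.96 kb to the left edge, and between them and the inside genes lay part of the zone with no tRNA gene. The chromosome 3 cluster, 25 genes from n-TNgtt4 to n-TEctc13 (96322074 to 96501518), had 6 genes inside the zone from 96479001 to 96597000, at its left end, and 19 outside at up to 156.9 kb. It holds 6 asparagine and 6 histidine genes, of which 1 each was inside. Like the chromosome 13 clusters of 32 and 36 genes, it has core histone genes nearby, on its left.

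Other large clusters lay wholly outside. The largest of all, on chromosome 6 (n-TCgca37 to n-TCgca19, 48133937 to 48363603), held 47 cysteine genes, all with anticodon GCA, and n-Tcgca44. Its 48 genes were 482.0 to 670.1 kb from the nearest zone (median 627.3 kb), in a stretch of 1351 kb between zones, and had a median of 5 protein-coding genes within 250 kb. The chromosome 1 cluster (n-TNgtt6 to n-TVcac6, 171033942 to 171111515) held 25 genes, chiefly for aspartate, glycine, leucine and glutamate tRNAs, overlapping the immunoglobulin Fc receptor gene Fcgr3. They were 106.0 to 183.5 kb from a zone, although a median of 22 protein-coding genes lay within 250 kb. On chromosome 14, the 7 genes from n-TLaag8 to n-TPtgg5 (51063883 to 51090718) lay 80.9 to 107.7 kb away, and on chromosome 17 the 7 from n-TKctt13 to n-TRccg2 (23533962 to 23550335) were 13.7 to 30.0 kb away, near Zfp213. Genes that share an anticodon, as on chromosome 6, can be alike enough for a short read to match several of them. No source used here says how reads with several matches were handled, and the part this has in the absence of a listed zone was not tested.

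**Figure D4:**
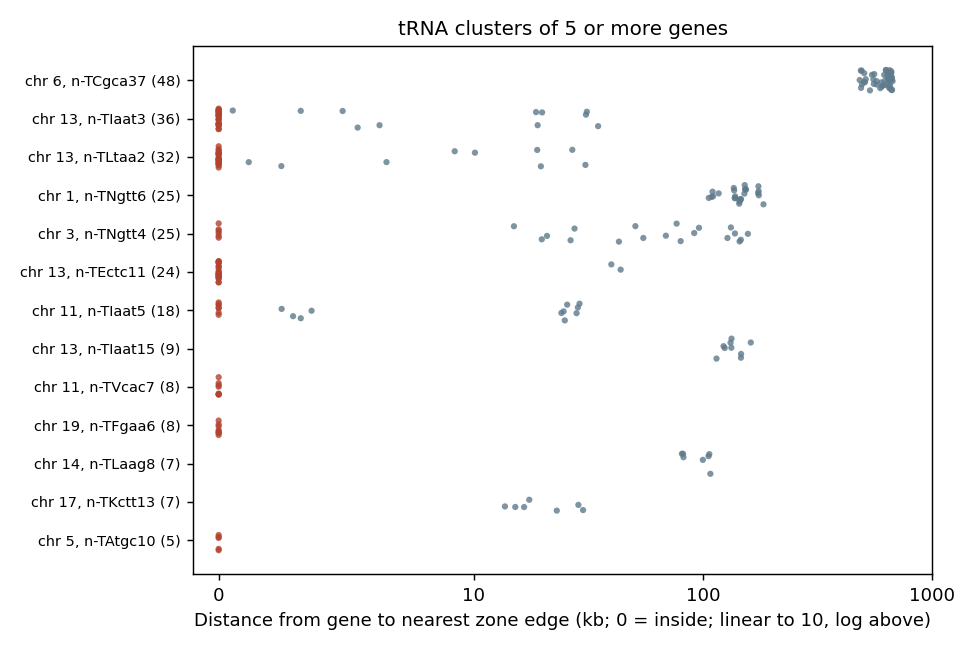
Distance of each tRNA gene to the nearest zone edge (x axis, kb, linear to 10 and logarithmic above; 0 means inside a zone) in the 13 clusters of 5 or more genes (y axis: chromosome, first gene and number of genes). Points are single genes, red inside and grey-blue outside, spread vertically at random for visibility; 3 clusters lie wholly at 0, 5 are mixed and 5 lie wholly outside.

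The genes farthest from any zone were n-TVcac3 of chromosome 17, at 2190 kb, n-TEttc4 of chromosome 14, at 909.7 kb, within the transcription factor gene Elf1, n-TKctt8 of chromosome 5, at 744.1 kb and 10.1 kb from Antxr2, and n-TCgca24 and n-TCgca23 of the chromosome 6 cluster, at 670.1 and 666.9 kb. The nearest protein-coding gene of n-TVcac3 was Nudt12, 55.3 kb away. The first 3 of these are single genes. Named after its values were seen, n-TLaag4 of chromosome 7 lies 0.180 kb from Polr3e, which encodes a subunit of RNA polymerase III. This leucine gene forms a locus of its own and shares its zone with n-TLtag1, another leucine gene.

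Grouped by the amino acid in the symbol, cysteine genes had the lowest share inside zones of the 20 groups and phenylalanine genes the highest. Of 56 cysteine genes 3 were inside (5.36%, 1.84 to 14.6%), all on chromosome 11, at 1700001P01Rik and Lasp1. The chromosome 6 cluster, wholly outside, holds 47 of the 56, so this low share and its interval rest largely on 1 locus. Of 7 phenylalanine genes 5 were inside (71.4%, 35.9 to 91.8%). Glutamine followed with 10 of 15, serine with 13 of 22, alanine with 12 of 21 and methionine with 9 of 16. Histidine, with 1 of 11, and tyrosine, with 2 of 10, were low. These groups follow the clusters: 8 of the 9 inside methionine genes, 7 of the 10 inside glutamine genes and 9 of the 13 inside serine genes were on chromosome 13, and outside it 1 of 5, 3 of 8 and 4 of 10 were inside. Most intervals overlap, and no group was tested.

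**Figure D5:**
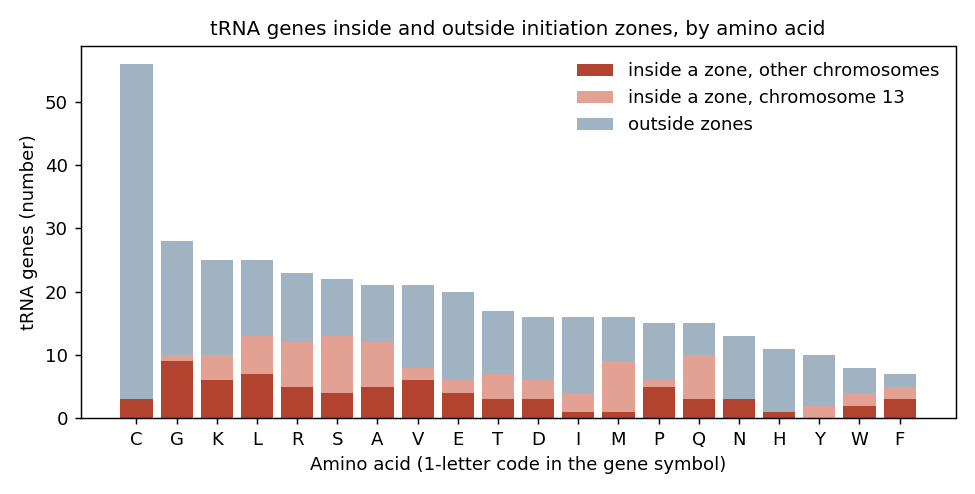
Number of tRNA genes (y axis) for each amino acid (x axis, 1-letter code as in the gene symbols), with inside genes of other chromosomes in red, inside genes of chromosome 13 in pale red and genes outside zones in grey-blue. Cysteine (C) has the most genes, 56, of which 3 are inside and 47 belong to the chromosome 6 cluster. For methionine (M), 8 of 9 inside genes are on chromosome 13.

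Counted by gene, the surroundings of tRNA genes were richer in genes than those of protein-coding genes. A tRNA gene had a median of 15.5 protein-coding genes within 250 kb, against 8 for a protein-coding gene. Genes of a cluster share their surroundings, and by locus the lower classes were the most common. Of the 123 loci, 40 had a gene with 0 to 4 such neighbours, 35 with 5 to 9, 33 with 10 to 19 and 20 with 20 or more. A locus can fall in several of these classes. Among tRNA genes with 0 to 4 such neighbours 14 of 55 were inside a zone (25.5%, 15.8 to 38.3%), against 17.1% of protein-coding genes in such surroundings. With 5 to 9 neighbours 24 of 88 were inside (27.3%, 19.1 to 37.4%), against 24.0%, and with 10 to 19 neighbours 46 of 88 (52.3%, 41.96 to 62.4%), against 24.9%. With 20 or more, 60 of 155 were inside (38.7%, 31.4 to 46.6%), against 24.9%. Without chromosome 13, the class of 0 to 4 neighbours was unchanged, and the others had 17 of 80 inside (21.25%, 13.7 to 31.4%) with 5 to 9 neighbours, 31 of 65 (47.7%, 36.02 to 59.6%) with 10 to 19 and 12 of 81 (14.8%, 8.68 to 24.1%) with 20 or more. The shares with 5 to 9 and with 20 or more neighbours then lay below those of protein-coding genes given above, which include chromosome 13. Of the 81 genes in the densest class, 25 are the chromosome 1 cluster. A few clusters also weigh on the class of 10 to 19. Of its 31 inside genes, 8 are the n-TVcac7 cluster of chromosome 11 and 8 the n-TFgaa6 cluster of chromosome 19, and others belong to the chromosome 3 cluster. The inside genes that chromosome 13 adds to this class are all from its first cluster. The part of gene density in these shares was not tested.

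Proteins that make and use tRNAs were set beside the tRNA genes. Of 29 genes for subunits of RNA polymerase III and its factors, 14 were inside a zone (48.3%, 31.4 to 65.6%), against 22.5% of all protein-coding genes. Among them were Polr3e and Polr3g, subunits of the enzyme, Brf1, part of the initiation factor TFIIIB, and Gtf3c2 and Gtf3c3, subunits of TFIIIC. Maf1, a repressor of RNA polymerase III, was also inside, with its middle 6.34 kb from a breakpoint. Other members of the same complexes lay outside. These included the subunits Polr3a and Polr3b, 157.9 and 68.7 kb from a zone, Bdp1 of TFIIIB, and Gtf3c1, Gtf3c4 and Gtf3c5 of TFIIIC. Of 18 genes for tRNA processing 8 were inside (44.4%, 24.6 to 66.3%), including Rpp25 and Rpp40 of RNase P, at 4.27 and 5.83 kb from a breakpoint, while Ssb, which encodes the La protein that binds new RNA polymerase III transcripts, lay 935.3 kb from a zone. Of 20 cytosolic aminoacyl-tRNA synthetase genes 4 were inside (20%, 8.07 to 41.6%): Lars, Nars, Qars and Rars. These lists were compiled with earlier results of these data known, and their counts are a description.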

How the data were processed

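One deposited file was used, the zone list of the wild-type OK-seq library. Its values are signed distances in bp, deposited by the authors with no score or count, and per the file headers each entry has a breakpoint bin, a minimum on its left and a maximum on its right, taken here as the zone edges. The submitters' processing notes name, with no role or order, mm10 as the build and the tools Picard 2.8.2, SAMtools, Bowtie, BWA 0.7.13, Trim Galore 0.4.2 and bcl2fastq. How zones were called, and how reads with several matches were handled, no source used here states. Gene positions, without strand, came from the RefSeq table of GRCm38.p6. Genes starting before 3 Mb or following the first drop in position on a chromosome were taken as scaffold genes (333) and left out.

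Counts, distances and Wilson 95% intervals were computed in Python 3.11.15 with pandas 2.3.3 and scipy 1.17.1; the difference in shares has a Newcombe interval. Intervals cover counting error only. Placing was checked on made-up zones. Named by rule were clusters of 5 or more tRNA genes, the 10 genes nearest to a breakpoint, the 5 farthest from a zone and 3 on each side of an edge. Other tRNA genes, such as n-TTagt5, n-TRtct4, n-TGacc1, n-TTcgt4 and n-TLaag4, were named outside these rules. Members and lists were chosen with earlier results of these data known.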

Additional observations from a re-analysis of the deposited data

How the results depend on the processing

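Of 37 values under other settings, 20 stayed within the 95% interval of the reported value (counts: within 1.5 times) and 17 moved; no difference changed sign. The share of tRNA genes inside a zone (37.3%) was 30.3% when narrower zones than the median were dropped, 30.6% without zones that have an arm at the limit, 46.4% with zones widened by 20 kb, 18.7% in the part of each arm nearer to the breakpoint, 26.3% without chromosome 13, 42.6% without the chromosome 6 cluster and 43.6% with 1 gene per anticodon and locus. Added after the data were seen, it was 31.6% without chromosomes 13 and 6 and 40.9% without the 5 largest clusters. For chromosome 13 alone (66.7%) it was 80.95% with widened zones. The share of loci (34.1%) was 20.3% with wide zones and 30.1 to 41.9% when loci were joined at other distances, limited to clusters, taken without chromosome 13 or required to lie wholly inside. The median distance to a zone edge (27.8 kb) was 51.2 kb with 1 value per locus, 80.9 kb without chromosome 13 and 127.2 kb with wide zones; to the breakpoint it was 96.5 kb. The difference to protein-coding genes (14.8 points) was 4.89 with either gene end and 3.59 without chromosome 13; under settings also added after the data were seen, it was 8.52 without chromosomes 13 and 6 and 10.8 with 1 position per locus. The cause of these shifts was not tested, beyond the narrower, wider or fewer zones and the genes that each setting leaves out. With 1 library of unknown depth, a zone too weak to be listed cannot be told apart from no zone.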
